A study of Arabidopsis thaliana with 12 samples.

Results

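The amylase genes of Arabidopsis thaliana were followed in germinating seeds through 10 members, BAM1 to BAM6, BAM9, AMY1, AMY2 and AMY3, out of 36795 entries in the count table. Members were chosen by gene identifier, and the family was taken up with results of these data already known; which values led to it is not recorded. Their values therefore describe these libraries and are not independent support for any pattern. The tests below come from a fit to all 19612 genes that passed a filter on low counts, and 7 of the 10 members passed it (BAM1, BAM2, BAM4, BAM5, BAM9, AMY2 and AMY3).

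RNA came from seeds of 3 transgenic lines that each express an artificial microRNA. The line amiR-HsMYO, called HsMYO here, is labelled as the wild-type control. The lines amiR-SYD-1 (SYD1) and amiR-SYD-2 (SYD2) carry microRNAs against SPLAYED (SYD, AT2G28290), which encodes an ATPase of SWI/SNF complexes that remodel chromatin. Neither the promoter of the microRNA transgenes nor whether each line goes back to a single transformant is stated in the sources used here. Seeds were sown on diluted MS medium with either 2 µM (±)-abscisic acid (ABA), the hormone that arrests growth after germination, or 0.002% ethanol as the control (called "without ABA"). All seeds had 3 days of cold (4 °C) in the dark and then 24 h in a cycle of 16 h light and 8 h dark at 22 to 24 °C. Each of the 6 groups had 2 libraries, which the labels call biological replicates without saying what was separate between them, so p-values measure the spread between these libraries. The series asks whether SYD is needed for ABA to arrest growth.

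Beta-amylases release maltose from the ends of starch chains, and alpha-amylases cut the chains internally. The Arabidopsis seed stores mainly oil and protein, and starch is made and broken down for a short time while reserves are used at germination. Of the beta-amylases, BAM1 and BAM3 are active plastid enzymes, BAM3 being the main one of the leaf at night, and BAM2 and BAM6 are plastid proteins whose part is less clear. BAM4 and BAM9 are plastid proteins without catalytic activity that influence starch breakdown, and BAM5 is a cytosolic enzyme best known from phloem. Among the alpha-amylases, AMY3 is in the plastid, AMY1 is secreted and AMY2 is thought to be cytosolic. In leaves under osmotic stress, ABA signalling is known to raise BAM1 and AMY3 transcripts.

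The library totals ran from 18713555 to 30012796 counts, and replicates differed by more than counting error (chi-square per degree of freedom 2.4 to 13.3). SYD transcript stood at 178 to 185 CPM (counts scaled to library size, per 1e+06) in HsMYO without ABA and at 98.6 to 108 CPM in the SYD lines. On ABA it stood at 196 to 230 and 126 to 153 CPM. The knockdown was thus partial (log2 -0.81, adjusted p = 1.4e-06 without ABA; -0.58, adjusted p = 3.7e-05 on ABA; edgeR). Seed storage and oil body genes, which define the labelled tissue, were detected (6 of 6) at a summed 69.8 to 1640 CPM. In bulk seed RNA, fewer cells of a type and less RNA per cell cannot be told apart.

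The 250 bases before the annotated start are given for the members on which the results turn (TAIR10.1, RefSeq annotation; 5′ to 3′ on the strand of the gene). BAM9 was the member most lowered by ABA. BAM1 and AMY3 rose, BAM5 differed most between the lines, and BAM2 is shown beside them because its window held the most matches to the ABA-linked letters while its level did not change detectably with ABA. Capitals mark matches to ACGTG, the core of ABA response elements, to CACGTG, the G-box, and to TATCCA, an element named from cereal alpha-amylase promoters, on either strand. A G-box contains the core on each strand. The windows are chr5:6225706-6225955 (plus strand) for BAM9, chr3:8640931-8641180 (plus) for BAM1, chr1:26293174-26293423 (minus) for AMY3, chr4:8669527-8669776 (minus) for BAM5 and chr4:222039-222288 (plus) for BAM2.
BAM9: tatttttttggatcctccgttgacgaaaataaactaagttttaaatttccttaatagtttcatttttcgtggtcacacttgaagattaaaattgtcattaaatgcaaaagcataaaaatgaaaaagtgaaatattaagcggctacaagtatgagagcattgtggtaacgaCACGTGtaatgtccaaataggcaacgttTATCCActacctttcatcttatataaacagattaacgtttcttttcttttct
BAM1: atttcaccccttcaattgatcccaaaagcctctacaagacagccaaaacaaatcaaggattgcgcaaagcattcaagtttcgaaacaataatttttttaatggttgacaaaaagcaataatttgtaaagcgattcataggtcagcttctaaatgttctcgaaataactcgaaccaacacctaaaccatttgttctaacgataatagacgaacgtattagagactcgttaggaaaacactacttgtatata
AMY3: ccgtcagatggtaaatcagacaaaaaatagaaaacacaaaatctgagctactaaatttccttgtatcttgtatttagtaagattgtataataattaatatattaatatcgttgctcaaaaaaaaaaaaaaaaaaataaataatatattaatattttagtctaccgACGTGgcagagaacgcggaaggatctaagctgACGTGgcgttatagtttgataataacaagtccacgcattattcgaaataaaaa
BAM5: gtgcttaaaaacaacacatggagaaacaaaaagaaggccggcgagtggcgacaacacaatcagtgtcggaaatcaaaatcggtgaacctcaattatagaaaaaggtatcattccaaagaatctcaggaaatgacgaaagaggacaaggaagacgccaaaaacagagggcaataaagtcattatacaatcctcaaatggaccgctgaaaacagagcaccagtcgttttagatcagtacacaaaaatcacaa
BAM2: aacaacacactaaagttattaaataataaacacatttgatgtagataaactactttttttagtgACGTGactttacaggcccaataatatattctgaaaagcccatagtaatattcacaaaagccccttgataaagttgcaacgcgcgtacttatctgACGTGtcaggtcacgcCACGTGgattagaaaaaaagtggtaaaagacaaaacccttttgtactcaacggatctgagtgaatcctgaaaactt

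BAM9 held a G-box 80 bases and TATCCA 52 bases before the start. AMY3 held the core at 85 and 53 bases, and BAM2 had a G-box at 76 bases and the core also at 186 and 92 bases. The windows of BAM1, BAM4, BAM5 and BAM3 held none of these letters; BAM6 held the core at 102 and 43 bases, AMY1 at 231 bases, and AMY2 held TATCCA at 11 bases. Of 27443 promoter windows of this length, 22.9% held ACGTG, 6.49% CACGTG and 13.6% TATCCA. The gibberellin response element TAACAAA (16.1% of windows) and the evening element AAAATATCT (2.36%) were searched too and were in none of the 10. Within these windows, the members called higher on ABA did not share the core. AMY3 had it, and BAM1, BAM4 and AMY2 (called in HsMYO only) did not. The AMY2 window reaches into the neighbouring gene AT1G76120, 155 bp upstream, and the BAM6 window into the pseudogene AT2G32291, 186 bp upstream. Sequence further from the start was not searched. A match is a string of letters in the window and was not tested as a binding site.

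In control seeds without ABA, BAM1 and BAM9 made up most of the amylase transcript. Per kilobase of exon (RPKM), BAM1 was highest at 37.8 ± 1.18 (SD, n = 2), followed by BAM9 at 29.9 ± 5.27, AMY3 at 9.08, BAM2 at 8.35, BAM4 at 6.91 and AMY2 at 3.56. The 2 libraries of each of these genes did not overlap with those of its neighbour in the order. BAM5 (0.111 RPKM), BAM3 (0.0772), AMY1 (0.0245) and BAM6 (0) formed the low end, and from BAM5 to BAM6 each gene overlapped with the next. In both SYD lines without ABA the first places were exchanged, with BAM9 at 47.8 and 59.3 RPKM and BAM1 at 26.5 and 25.1. On ABA, BAM1 led in all lines (47.7 to 55 RPKM), AMY3 came next (14.3 to 16.4), and BAM9 (6.64 to 7.35) stood below BAM4 (10.4 to 12.3) and BAM2 (9.42 to 10.1). The summed CPM of the 10 genes moved little beside this, from 215 to 277 over the 12 libraries.

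**Figure D1:**
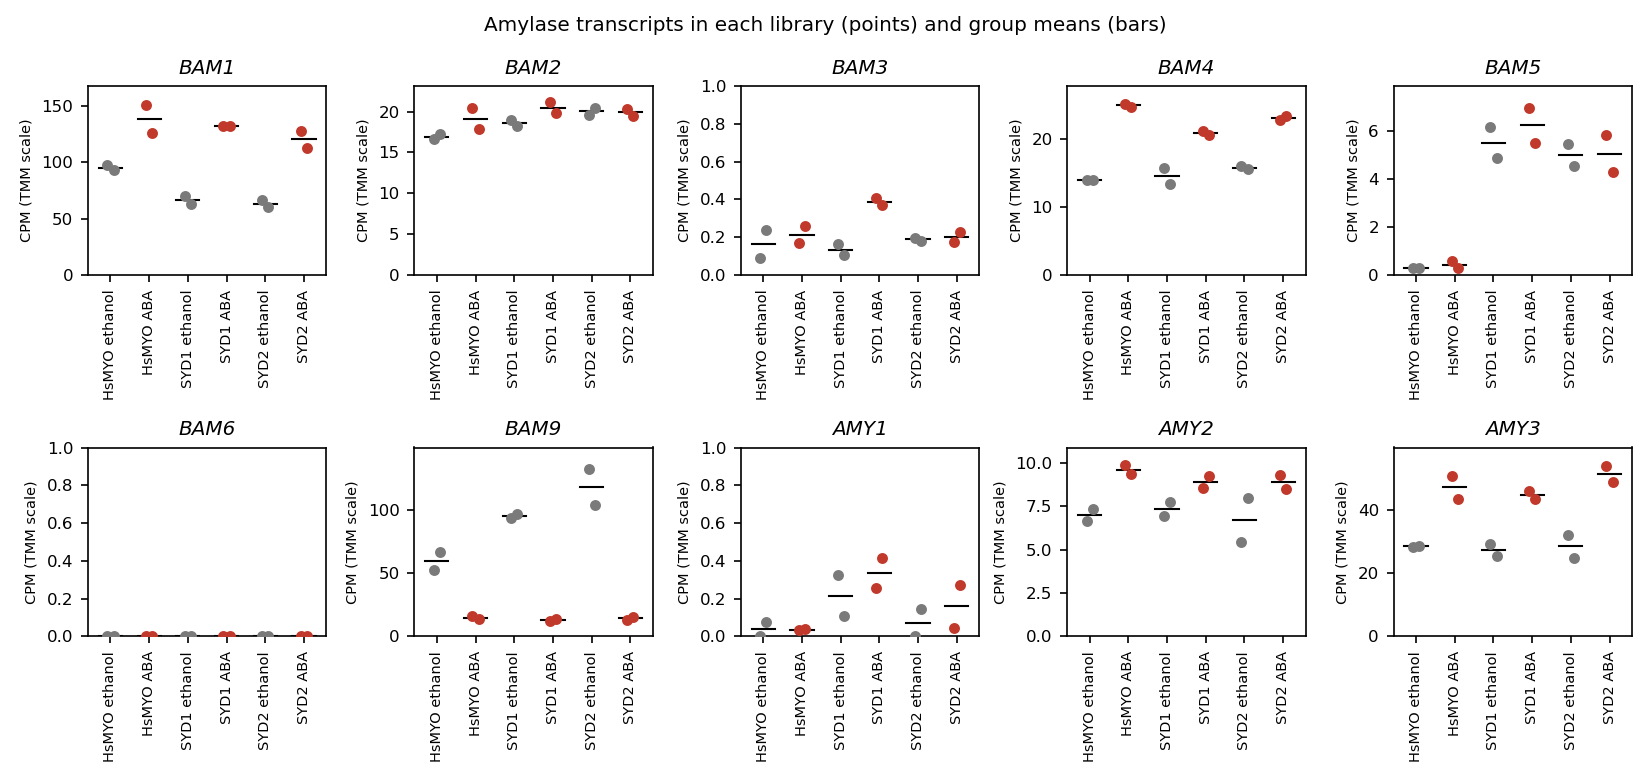
Each panel plots 1 amylase gene, with TMM-scaled CPM on the vertical axis and the 6 groups on the horizontal axis; points are libraries (grey without ABA, red on ABA) and bars are means of 2. BAM9 falls to 12.4 to 15.9 CPM on ABA in every line, BAM5 lies at 4.29 to 6.96 CPM in the SYD lines against 0.276 to 0.571 in HsMYO, and BAM6 is at 0 throughout.

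BAM1 (AT3G23920, chromosome 3, 8641181 to 8644449, plus strand), the active plastid enzyme, rose on ABA in all lines. In HsMYO it had 97.3 and 93.1 CPM without ABA and 151 and 126 CPM on ABA. SYD1 had 70.6 and 63.1 CPM without ABA and 132 in each library on ABA, and SYD2 went from 66.6 and 60.1 to 128 and 113 CPM. ABA and ethanol libraries did not overlap in any line, and the SYD lines were below HsMYO without ABA and overlapped with it on ABA. By edgeR's quasi-likelihood test with Benjamini-Hochberg adjustment, the rise was 0.54 ± 0.09 (log2 ± SE; adjusted p = 0.00012) in HsMYO, 0.98 ± 0.09 (4.1e-07) in SYD1 and 0.93 ± 0.09 (8.4e-07) in SYD2, or 1.46-, 1.98- and 1.9-fold.

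AMY3 (AT1G69830, chromosome 1, 26288228 to 26293173, minus strand), the plastid alpha-amylase, also rose on ABA in every line. It had 28.3 and 28.5 CPM in HsMYO without ABA and 50.7 and 43.4 CPM on ABA. The values were 29.2 and 25.4 against 45.9 and 43.5 CPM in SYD1, and 31.9 and 24.9 against 53.8 and 48.8 CPM in SYD2. HsMYO overlapped with each SYD line in each treatment, and the treatments did not overlap. The rises were 0.73 ± 0.11 (edgeR adjusted p = 3.1e-05), 0.71 ± 0.11 (7.8e-05) and 0.86 ± 0.11 (8.6e-06) on the log2 scale.

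BAM4 (AT5G55700, chromosome 5, 22551734 to 22554964, plus strand), a beta-amylase without catalytic activity, was also higher on ABA in every line. HsMYO had 13.9 and 14 CPM without ABA and 25.1 and 24.7 CPM on ABA. In SYD1 the values were 15.7 and 13.3 against 21.2 and 20.6 CPM, and in SYD2 16 and 15.5 against 22.8 and 23.4 CPM. On ABA both HsMYO libraries were above all SYD libraries. The log2 rises were 0.83 ± 0.08 (edgeR adjusted p = 5.6e-07), 0.53 ± 0.09 (0.00015) and 0.55 ± 0.08 (7.2e-05). BAM4 shares 87 bp with AT5G55710 on the opposite strand (19.4 to 25.6 CPM), and whether the counting used the strand is not stated in the sources used here.

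AMY2 (AT1G76130, chromosome 1, 28560629 to 28564159, plus strand), the alpha-amylase thought to be cytosolic, passed the test only narrowly. Its libraries lay at 6.67 and 7.32 CPM without ABA and 9.85 and 9.36 on ABA in HsMYO, at 6.93 and 7.72 against 8.54 and 9.24 in SYD1, and at 5.44 and 7.95 against 9.27 and 8.49 in SYD2. Every ABA library was above the ethanol libraries of its line. The rise of 0.46 ± 0.15 in HsMYO was called (edgeR adjusted p = 0.015) and ended without HsMYO without ABA replicate 1 (0.38, adjusted p = 0.11) or HsMYO on ABA replicate 1 (0.41, 0.064). The differences of 0.28 (0.16) in SYD1 and 0.39 (0.051) in SYD2 were not called; the latter was called without the low-count filter (adjusted p = 0.021) and without SYD2 without ABA replicate 2 (0.71, adjusted p = 0.0028).

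BAM9 (AT5G18670, BMY3 in RefSeq, chromosome 5, 6225956 to 6228195, plus strand), the other member without catalytic activity, went the opposite way and had the largest ABA response of the 7 tested members in each line. HsMYO had 52 and 66.8 CPM without ABA and 15.9 and 13.4 CPM on ABA. SYD1 fell from 93.2 and 96.9 to 12.4 and 14 CPM, and SYD2 from 132 and 104 to 13.3 and 15.6 CPM. The lines were apart without ABA, where every SYD library exceeded both HsMYO libraries, and together on ABA. The log2 changes were -2.02 ± 0.14 (edgeR adjusted p = 5.1e-09), -2.85 ± 0.14 (2.3e-10) and -3.03 ± 0.14 (8.8e-11), that is 4.06-, 7.19- and 8.15-fold lower. BAM9 shares 33 bp with AT5G18680 on the opposite strand, which had 19.2 to 24.7 CPM in the 12 libraries.

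BAM2 and BAM5 did not pass the test for ABA in any line. BAM2 (AT4G00490, chromosome 4, 222289 to 225131, plus strand) lay between 16.7 and 21.2 CPM in all libraries, with log2 differences of 0.17 (95% interval -0.01 to 0.35), 0.13 (-0.06 to 0.32) and -0.01 (-0.19 to 0.17); its adjusted p in HsMYO was 0.095 by edgeR, and 0.033 without HsMYO on ABA replicate 2 (0.25). It overlaps AT4G00500 on the opposite strand by 104 bp (10.6 to 14.4 CPM). BAM5 had differences of 0.58 (-0.53 to 1.7), 0.17 (-0.26 to 0.61) and 0.03 (-0.4 to 0.46), and its treatments overlapped in each line.

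In counts of members, ABA in HsMYO called 4 higher and 1 lower of the 7 tested. Over all 19612 tested genes, 54.0% were called in this comparison, 26.9% higher and 27.1% lower, and the median log2 was 0.02 against 0.54 for the tested members. SYD1 had 3 members higher and 1 lower against a background of 46.9% (21.7% higher, 25.2% lower), and SYD2 had the same count against 42.9% (19.4% higher, 23.6% lower). With so many genes called, a share of this size is not a result about the family; the sizes and directions of single genes are what these values describe.

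**Figure D2:**
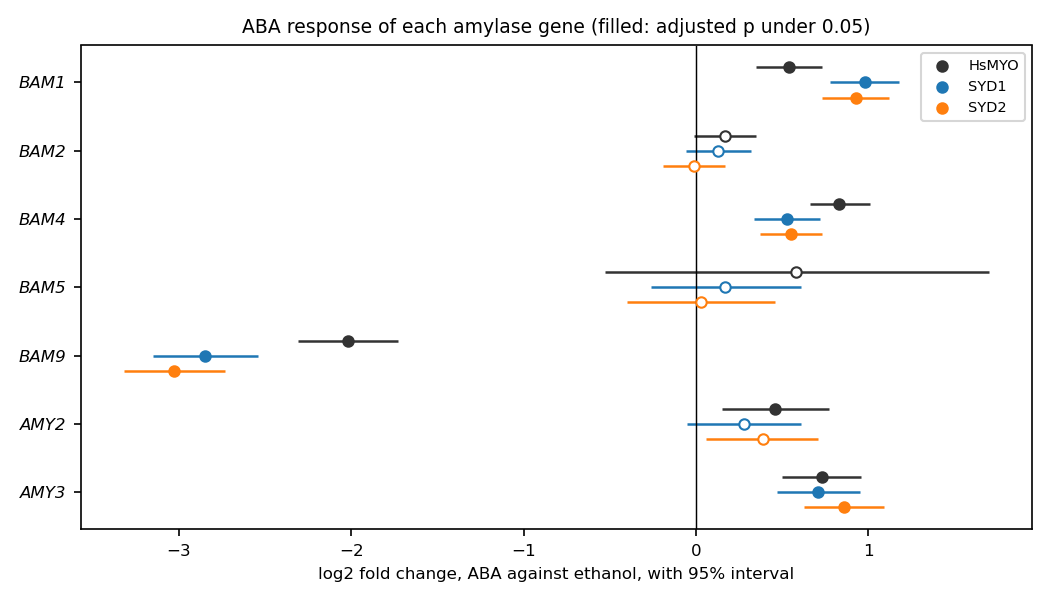
The log2 fold change of ABA against ethanol is on the horizontal axis for the 7 tested amylase genes, with points for HsMYO, SYD1 and SYD2, lines for 95% intervals and filled points for an adjusted p under 0.05. BAM9 lies at -2.02, -2.85 and -3.03, and BAM1, BAM4 and AMY3 lie between 0.53 and 0.98.

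BAM5 (AT4G15210, chromosome 4, 8666334 to 8669526, minus strand), the cytosolic enzyme, showed the largest difference between the lines among the 7 tested members. HsMYO had 7 and 7 counts without ABA and 17 and 8 on ABA, or 0.309, 0.276, 0.571 and 0.296 CPM. SYD1 had 6.17 and 4.86 CPM without ABA and 6.96 and 5.52 on ABA, and SYD2 had 5.48 and 4.53, then 5.82 and 4.29 CPM. All 8 SYD libraries were above all 4 HsMYO libraries. BAM5 passed the low-count filter (0.447 CPM) in 8 of 8 SYD libraries and 1 of 4 HsMYO libraries, so it was tested because it was high in the SYD lines. Taken as a mean, the SYD lines were 17.7-fold above HsMYO without ABA (log2 4.14 ± 0.31, edgeR adjusted p = 1.2e-07) and 12.6-fold on ABA (3.66 ± 0.27, 1e-07). Line by line, the log2 differences were 4.22 and 4.07 without ABA and 3.81 and 3.51 on ABA for SYD1 and SYD2.

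Even so, BAM5 stayed a minor amylase transcript, at 1.9 to 2.36 RPKM and 1.59 to 2.59% of the summed amylase RPKM in the SYD lines. The nearest upstream gene, AT4G15215 at 1822 bp, differed by 0.19 (edgeR adjusted p = 0.29) without ABA and 0.04 (0.82) on ABA. The nearest downstream gene, AT4G15200, lies closer, at 283 bp. It was too low to be tested (group means of 0 to 0.11 CPM). Phloem markers went both ways, and their part in the BAM5 difference was not tested. The 5 genes, all detected, summed to 215 to 225 CPM in HsMYO and 189 to 211 CPM in the SYD lines without ABA, and to 342 to 364 and 268 to 290 CPM on ABA. Without ABA, 2 of the 5 were higher in the SYD lines (SUC2 by 0.79, APL by 0.36) and 3 were lower (SEOR1 by -0.86, SEOR2 by -0.87, CALS7 by -0.61).

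Without ABA, BAM9 and BAM1 also differed between the lines, in opposite directions. BAM9 was 1.78-fold higher in the mean of the SYD lines (log2 0.83 ± 0.11, edgeR adjusted p = 2.9e-05; 0.68 in SYD1 and 0.98 in SYD2), and BAM1 was 1.46-fold lower (-0.55 ± 0.08, 8.1e-05; -0.51 and -0.59). The ratio of BAM9 to BAM1 per exon length was 0.677 and 0.909 in HsMYO, 1.67 and 1.95 in SYD1 and 2.51 and 2.19 in SYD2. It was below 1 in the control and above 1 in both SYD lines, and lay between 0.119 and 0.175 in all 6 ABA libraries.

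**Figure D3:**
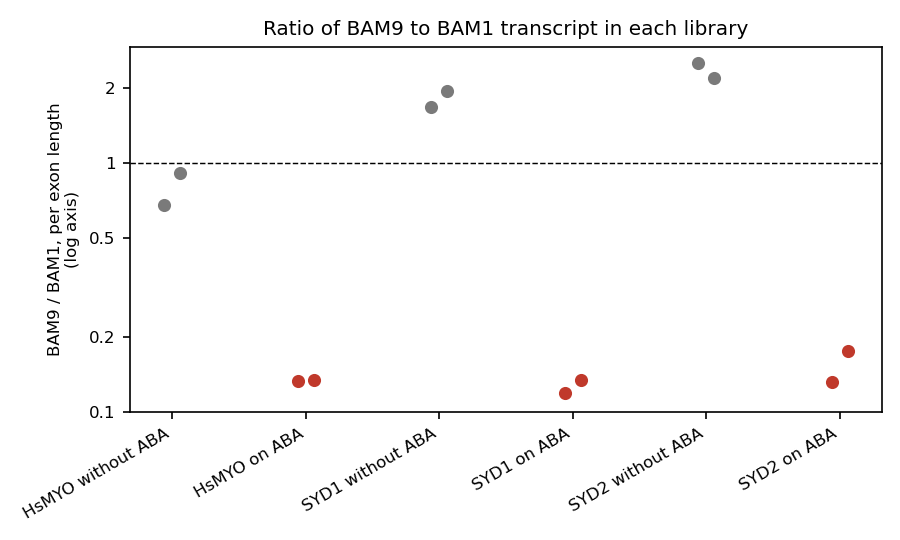
The ratio of BAM9 to BAM1 transcript per exon length is plotted on a log axis for each of the 12 libraries, grouped by line and treatment; the dashed line marks equal levels. Without ABA the SYD libraries lie at 1.67 to 2.51 and the HsMYO libraries at 0.677 and 0.909, while all ABA libraries lie at 0.119 to 0.175.

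AMY3, BAM4 and AMY2 did not pass the test without ABA, with differences of -0.03 (95% interval -0.24 to 0.17), 0.11 (-0.05 to 0.28) and 0.01 (-0.28 to 0.3). BAM2 had 0.19 (0.03 to 0.35, edgeR adjusted p = 0.066), and passed when either HsMYO library on ABA was left out, replicate 1 (0.043) or replicate 2 (0.039). SYD2 alone had 0.24 for BAM2 (adjusted p = 0.047), a call that ended with DESeq2 (0.16), without the low-count filter (0.11), with only the groups compared (0.083) and in 10 of 12 fits that left out 1 library, those without either replicate of HsMYO without ABA, SYD1 without ABA, SYD1 on ABA, SYD2 without ABA or SYD2 on ABA. Of the 7 tested members, 2 were called higher and 1 lower in the mean of the SYD lines, while 32.2% of all tested genes were called (17.7% higher, 14.5% lower). BAM5, among those called higher, was tested because it was high in the SYD lines. SYD1 alone had 3 called members against a background of 26.0% and SYD2 alone 4 against 25.9%; both lines share the same HsMYO libraries.

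On ABA, BAM5 was the 1 member called in the mean of the SYD lines, where 32.6% of all genes were called (16.8% higher, 15.9% lower). BAM5 passed the low-count filter through the SYD lines. BAM9 differed by -0.08 (95% interval -0.36 to 0.19), BAM1 by -0.14 (-0.3 to 0.03), AMY3 by 0.02 (-0.16 to 0.21), AMY2 by -0.11 (-0.37 to 0.15) and BAM2 by 0.08 (-0.08 to 0.23). BAM4 was lower by -0.18 (-0.33 to -0.03) at an edgeR adjusted p of 0.057, which missed the threshold. In SYD1 alone, BAM4 was called (-0.25, adjusted p = 0.031), so that SYD1 had 2 called members against 26.2% of all genes and SYD2 had 1 against 25.5%. That BAM4 call ended with DESeq2 (-0.23, adjusted p = 0.18), without the low-count filter (0.054), with only the groups compared (0.064) and without either replicate of HsMYO on ABA or of SYD1 on ABA (adjusted p = 0.062 to 0.18). Without HsMYO on ABA replicate 2, BAM1 was also called lower in the mean of the SYD lines (-0.25, adjusted p = 0.033) and in SYD2 (-0.32, 0.021).

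**Figure D4:**
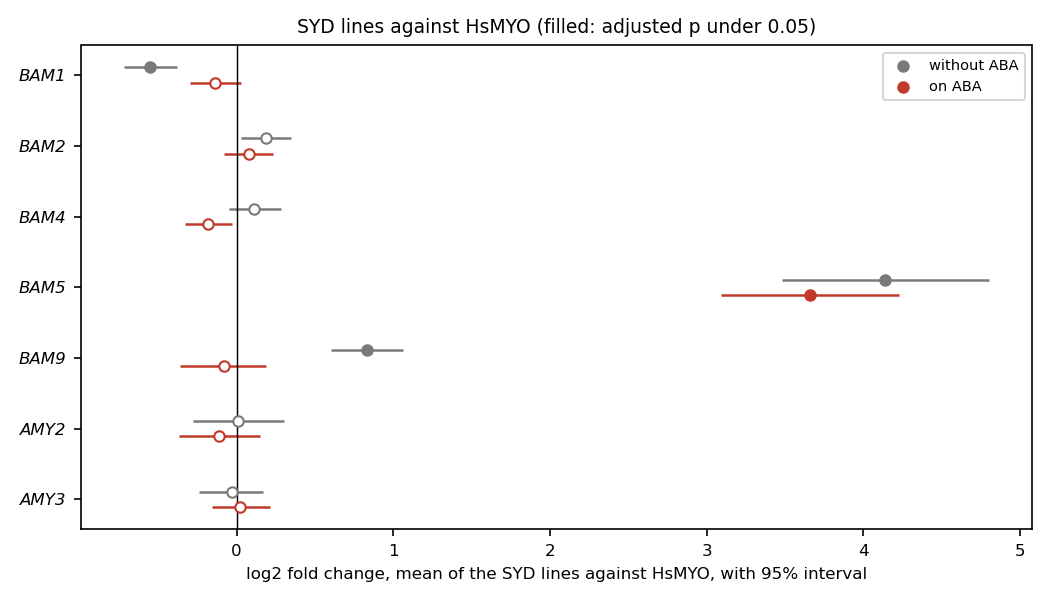
The log2 fold change of the mean of both SYD lines against HsMYO is on the horizontal axis for the 7 tested amylase genes, without ABA (grey) and on ABA (red), with 95% intervals and filled points for an adjusted p under 0.05. BAM5 lies at 4.14 and 3.66, whereas BAM9 and BAM1 are away from 0 without ABA (0.83 and -0.55) and not on ABA (-0.08 and -0.14).

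The difference between the ABA responses was tested as an interaction. BAM9 fell by more in the SYD lines than in HsMYO (log2 -0.91 ± 0.17, edgeR adjusted p = 0.0043), and BAM1 rose by more (0.41 ± 0.11, 0.044). For both genes the mean of the SYD lines differed from HsMYO by more without ABA (0.83 and -0.55) than on ABA (-0.08 and -0.14). By line, the BAM9 difference was -0.82 (adjusted p = 0.034) in SYD1 and -1.0 (0.0075) in SYD2, and the BAM1 difference was 0.44 (0.092) and 0.38 (0.13). The latter pair was called without HsMYO on ABA replicate 1 (0.58, adjusted p = 0.011, and 0.52, 0.017) and without the low-count filter (0.0014 and 0.0074). So 2 of 7 tested members were called where 5.14% of all genes were (2.69% higher, 2.45% lower), and 1 in each single line, against 2.84% for SYD1 and 3.70% for SYD2.

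The BAM9 difference for both lines stayed called in each of the 12 fits that left out a library. In SYD1 alone it ended without replicate 1 of HsMYO in either treatment and without either replicate of SYD1 in either treatment (-0.65 to -0.91, adjusted p = 0.081 to 0.2). In SYD2 alone it ended without SYD2 on ABA replicate 1 (-0.89, 0.056). The BAM1 call ended in 8 of 12: without either replicate of HsMYO without ABA or of SYD1 on ABA, without replicate 2 of HsMYO on ABA, of SYD1 without ABA or of SYD2 without ABA, and without replicate 1 of SYD2 on ABA (0.29 to 0.45, adjusted p = 0.062 to 0.17). BAM4 had a difference of -0.29 that was not called (0.13), and BAM5, whose HsMYO counts were few, had -0.48 with an interval of -1.63 to 0.67.

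No member was called between SYD1 and SYD2 by edgeR, without ABA (0.688% of all genes called) or on ABA (0.846%), and DESeq2 called none either. At an unadjusted p under 0.05 in the edgeR fit there was 1 member, BAM9 without ABA (-0.31, interval -0.56 to -0.06, adjusted p = 0.34), which was called when the low-count filter was left out (adjusted p = 0.0043). On ABA no member had an unadjusted p under 0.05; AMY3 came closest with -0.2 (-0.42 to 0.02, edgeR adjusted p = 0.61).

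BAM3, AMY1 and BAM6 were too low to pass the filter. BAM3 (AT4G17090, CT-BMY in RefSeq), the main leaf enzyme, had 59 counts in all, 2 to 8 in every library, with 20 in HsMYO, 21 in SYD1 and 18 in SYD2. AMY1 (AT4G25000), the secreted alpha-amylase, had 37 counts, from 0 to 9 a library: 4 in HsMYO, 22 in SYD1 and 11 in SYD2. When all genes with counts were tested, AMY1 was higher in SYD1 than in HsMYO on ABA (log2 3.09, edgeR adjusted p = 0.035, from 2 and 14 counts) but the mean of the SYD lines was not called (2.55, 0.074). AMY1 shares 16 bp with AT4G24990 on the same strand (14.6 to 18.9 CPM). How reads from those bases were assigned is not stated in the sources used here. BAM6 (AT2G32290) had 0 counts in all 12 libraries, which allows up to 0.101 to 0.162 CPM per library (3 counts, counting error only). It overlaps AT2G32280 on the opposite strand by 693 bp (2.1 to 3.81 CPM). Whether reads from that stretch could count for BAM6 is not stated in the sources used here.

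Most other genes of starch breakdown were also higher on ABA. Of 13 such genes, all tested, 10 were higher and 1 lower in HsMYO (median log2 0.54; 26.9% of all tested genes higher and 27.1% lower, median 0.02), led by the cytosolic glucan phosphorylase PHS2 (1.41), the debranching enzyme ISA3 (1.29) and the plastid disproportionating enzyme DPE1 (1.02); LSF1, a phosphatase-like protein of the starch granule, was lower (-0.81). In each SYD line 11 were higher and 0 lower (medians 0.60 and 0.61), where 21.7% of all genes were higher in SYD1 and 19.4% in SYD2. Between the lines, 8 were higher and 0 lower in the SYD lines without ABA (median 0.26; of all genes 17.7% higher and 14.5% lower, median 0.01), led by the starch-phosphorylating dikinases GWD1 (0.75) and PWD (0.71) and by DPE1 (0.68). On ABA, 10 were higher and 0 lower (median 0.36; of all genes 16.8% higher and 15.9% lower, median -0.02), led by the cytosolic disproportionating enzyme DPE2 (0.70), LSF1 (0.64) and GWD1 (0.57). LSF1 was the 1 gene of the list with a called difference of ABA responses (0.84, edgeR adjusted p = 0.0013).

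**Figure D5:**
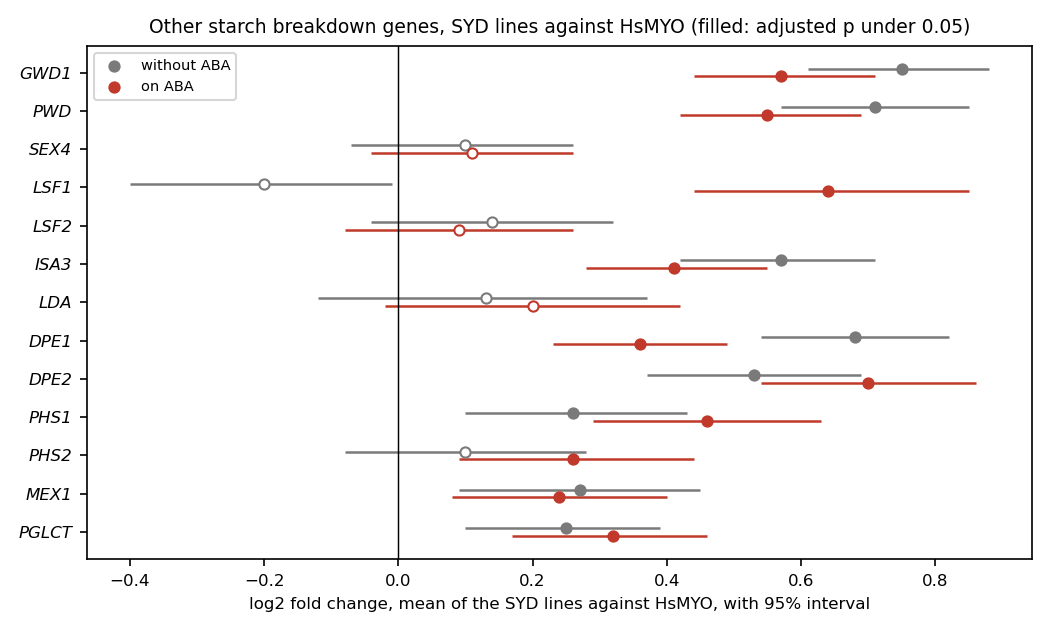
The log2 fold change of the mean of both SYD lines against HsMYO is on the horizontal axis for 13 other starch breakdown genes, without ABA (grey) and on ABA (red), with 95% intervals and filled points for an adjusted p under 0.05. No called gene is lower, 8 are higher without ABA and 10 on ABA, and LSF1 is at -0.20 without ABA and 0.64 on ABA.

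Genes of starch synthesis went both ways. Of 20, all tested, 11 were higher and 3 lower on ABA in HsMYO (median 0.26; all genes 26.9% and 27.1%, median 0.02), with the granule-bound starch synthase GBSS1 (1.59), the branching enzyme SBE2.1 (1.31) and the ADP-glucose pyrophosphorylase subunit APL2 (1.06) highest, and the glucose-6-phosphate translocator GPT2 (-1.62), APL3 (-0.69) and the isomerase PGI1 (-0.24) lowest. Against HsMYO, the SYD lines had 6 higher and 2 lower without ABA (median 0.10; all genes 17.7% and 14.5%, median 0.01), with SBE2.2 (0.64), ISA1 (0.45) and ISA2 (0.37) up and GPT2 (-1.45) and APL3 (-0.37) down. On ABA they had 7 higher and 3 lower (median 0.03; all genes 16.8% and 15.9%, median -0.02), with SBE2.2 (0.59), APL4 (0.55) and APS1 (0.47) up and GPT2 (-1.32), APL1 (-0.46) and SS3 (-0.18) down. APL3 (0.45) and PTST2 (-0.41) had called differences of ABA responses (edgeR adjusted p = 0.013 each).

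Markers of seed tissues moved as well, and their part in the amylase values was not tested. On ABA the summed storage and oil body genes went from 69.8 to 232 CPM up to 1020 to 1250 CPM in HsMYO, from 168 to 469 up to 1410 to 1640 CPM in SYD1, and from 131 to 203 up to 958 to 1360 CPM in SYD2; 3, 4 and 4 of the 6 were called higher and 0 lower. Against HsMYO, the mean of the SYD lines had 2 of these 6 called higher and 0 lower without ABA (all genes 17.7% and 14.5%). On ABA it had 3 higher and 2 lower (all genes 16.8% and 15.9%). There OLEO1 had group means of 304 CPM in HsMYO, 167 in SYD1 and 133 in SYD2, while CRU3 had 26.2, 225 and 110 CPM. The endosperm list (3 of 3 detected) summed to 2380 to 4940 CPM over all libraries, most of it EPR1 (1790 to 3890 CPM). Within that list MAN7, for a mannanase, rose 6.29-, 5.44- and 5.52-fold on ABA in HsMYO, SYD1 and SYD2, and EXPA2, for an expansin, rose 1.91-, 1.99- and 1.83-fold. EPR1 was called higher in SYD2 (0.57, edgeR adjusted p = 0.045) and in neither other line. In HsMYO it went the other way and just missed the threshold (-0.52, interval -0.98 to -0.06, edgeR adjusted p = 0.053), and in SYD1 it was at 0.09 (0.77). Seed coat markers (3 or 4 of 4 detected) went from 75.2 to 76.6 CPM in HsMYO without ABA to 46.6 to 51.5 CPM in the SYD lines, and to 33.6 to 46.3 CPM on ABA in all lines. Without ABA, MUM2 (-0.85) and MUM4 (-0.25) were lower in the mean of the SYD lines, while PER36 was higher (2.14, edgeR adjusted p = 0.0031). PER36 had 3 and 6 counts in HsMYO without ABA and 15 to 23 in the SYD lines without ABA. Every HsMYO library was under the low-count filter, so PER36 was tested because it was high in the SYD lines. Guard cell markers (3 to 5 of 5) were at 10.6 to 10.9 CPM in HsMYO without ABA, 4.01 to 7.37 CPM in the SYD lines without ABA and 1.63 to 3.15 CPM on ABA in all lines. There KAT1 (-1.91) and HT1 (-1.20) were lower in the mean of the SYD lines without ABA, and FAMA was higher (0.83, edgeR adjusted p = 0.0042).

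The genes whose log2 CPM followed the 3 most variable members most closely are given as a description over 12 libraries that fall into 6 groups. For BAM5 these were AT5G50000 (Pearson r = 0.992), CBSX5 (0.986) and SSL4 (0.985), none of which differed by as much: CBSX5 went from 2.88 CPM in HsMYO to 12.4 in SYD1 and 13.1 in SYD2 without ABA. For BAM9 they were CYP702A2 (0.995), SAG29 (0.992) and CRY1 (0.992), and SAG29 went from 89.1 to 19.6 CPM on ABA in HsMYO and from 139 and 149 to 21.4 and 22.3 CPM in SYD1 and SYD2. For BAM1 they were AT5G49530 (0.990), AT2G24420 (0.980) and AT1G09870 (0.980).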

How the data were processed

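Raw counts per gene were deposited by the authors as 1 table with 1 column per library. Per the submitters' processing notes, the tools were Trimmomatic 0.39, a read trimmer, and STAR 2.7.10a, an aligner, and the build was TAIR10; per the labels' protocols, libraries came from a stranded mRNA kit and were read as 100 bp pairs. How counts were made (program, strand, multi-mapping reads, annotation) is not given in the sources used here.

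The model was fitted with edgeR 4.0.16 (R 4.3.3): filterByExpr with a minimum count of 10 (19612 genes kept), TMM scaling, 1 mean per group over all 12 libraries (6 residual degrees of freedom), quasi-likelihood F-tests, 2-sided, and Benjamini-Hochberg adjustment over all tested genes. The threshold was an adjusted p of 0.05. SE is the log2 fold change divided by the square root of F, and intervals are 95%. RPKM uses exon length in TAIR10.1, the reference whose RefSeq annotation gave positions and to which 36632 entries matched. The table itself holds no coordinates.

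Depth was 18713555 to 30012796 counts per library. The intervals of fold changes hold the spread between libraries as the model estimates it. Floors of 3 counts cover counting error only, since duplicates cannot be told from molecules. The pairing of replicate numbers is not in the labels, so no block was used. The alternatives were RLE scaling, DESeq2 1.42.0, no filter, the compared groups alone, a replicate block and leaving out each library. The members, gene lists, printed promoters and motifs were chosen with earlier results of these data known. All members were named; of each list, at most 3 called genes per direction with the largest change were named, and for the 3 members of widest range the 3 genes of highest correlation. Single markers and the neighbours of BAM5 were named outside that rule, after their values were seen. The script was tested on simulated data.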

Additional observations from a re-analysis of the deposited data

Results flagged for a closer look

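For BAM9, the response to ABA differed between the lines by a test of the difference itself. The fall was larger than in HsMYO by -0.82 (log2, adjusted p = 0.034) in SYD1, by -1.0 (0.0075) in SYD2 and by -0.91 (0.0043) in the mean of both, by edgeR's quasi-likelihood test. The SYD1 call ended in 6 of 17 alternatives and the SYD2 call in 1, each a fit that left out 1 library. The call for the mean ended in 0. All 4 ethanol libraries of the SYD lines were above both of HsMYO. For BAM1, the rise on ABA was larger in the mean of the SYD lines than in HsMYO by 0.41 (adjusted p = 0.044), and all 4 ethanol libraries of the SYD lines were below both of HsMYO. In SYD1 (0.44) and SYD2 (0.38) alone the BAM1 difference was not called, and the call for the mean ended in most fits that left out 1 library. Groups of 2 libraries were not screened for single outlying libraries.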

How the results depend on the processing

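The 98 results for single members (7 tested members in 14 comparisons) were recomputed under 16 or 17 alternatives each. Of 1665 values, 1610 kept their direction where called and their side of the threshold, 37 lost a call, 18 gained one and 0 reversed a called direction. BAM5 had no value in 1 comparison with only the groups compared, where it failed the filter. RLE scaling moved the median of all genes by at most 0.03 (log2).

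As counts of members called, SYD1 against HsMYO on ABA went from 2 to 1 with only the groups compared and with DESeq2, and SYD1 against SYD2 without ABA from 0 to 1 without the low-count filter. The differences between the ABA responses of SYD1 and HsMYO and of SYD2 and HsMYO each went from 1 to 2 without that filter. Leaving out 1 library gave 1 to 2 members for SYD1 against HsMYO on ABA, for SYD2 against HsMYO on ABA and for the mean of the SYD lines on ABA. It gave 0 to 1 for the difference between the responses of SYD1 and HsMYO, 0 to 2 for SYD2 and HsMYO, and 1 to 2 for the mean of both lines. In other comparisons the count changed through BAM2 or AMY2. SYD2 against HsMYO without ABA lost BAM2 with DESeq2, without the filter, with only the groups compared and in most fits that left out 1 library. ABA in SYD2 gained AMY2 without the filter. Leaving out 1 library lost AMY2 or gained BAM2 for ABA in HsMYO. It also gained AMY2 for ABA in SYD2 and BAM2 for the mean of the SYD lines without ABA. The cause of these changes was not tested.

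With the replicate number as a block, the count went from 1 to 2 for SYD2 against HsMYO on ABA (BAM1, -0.20, adjusted p = 0.023), for the mean of the SYD lines on ABA (BAM4, -0.18, 0.04) and for the differences of SYD1 and of SYD2 from HsMYO (BAM1, 0.45, 0.0088, and 0.39, 0.018). It also gained AMY2 for ABA in SYD2 (0.39, 0.033) and BAM2 for the mean of the SYD lines without ABA (0.19, 0.048), and no member lost a call. Same-numbered libraries share a number and no stated pairing; their deviations correlated at -0.03 to 0.15 (median 0.07).

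Depth limits BAM3, AMY1 and BAM6, and it limits BAM5 in HsMYO, where 14 and 25 counts per treatment lie behind its levels. With 2 libraries per group, a difference that was not called does not show that levels were equal.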

Other observations

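BAM7 (AT2G45880) and BAM8 (AT5G45300), nuclear proteins with a beta-amylase-like domain and a DNA-binding domain, were not among the 10 members. BAM7 stood at 20 ± 0.447 CPM (SD, n = 2) in HsMYO without ABA and 26 ± 1.09 CPM on ABA (log2 0.38, edgeR adjusted p = 0.00031). Its change on ABA was 0.15 in SYD1 (adjusted p = 0.13, not called) and 0.23 in SYD2 (0.018). On ABA BAM7 was lower in the mean of the SYD lines than in HsMYO (-0.24, adjusted p = 0.0067), at 21.2 ± 0.192 CPM in SYD1 and 22.9 ± 0.205 CPM in SYD2. By line, that difference was called in SYD1 and not in SYD2. The difference between the ABA responses was -0.19 and was not called (adjusted p = 0.25). BAM8 stayed between 17 and 21.9 CPM in all libraries and passed no test for ABA or between the lines.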
